A study of Mus musculus with 12 samples.

Results

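Mitochondrial ribosomal proteins are made in the cytosol from nuclear genes, imported, and assembled with ribosomal RNA of the mitochondrial genome into the mitoribosome. The large subunit holds the peptidyl transferase centre and the small subunit decodes the mRNA. All the proteins that the mitoribosome makes in mammals are core subunits of the oxidative phosphorylation complexes. Quiescent muscle stem cells (MuSCs) are known for few mitochondria and low respiration, and activation is known to raise both.

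The genes described here are the 78 protein-coding genes whose symbol is Mrpl or Mrps followed by a number, out of 17505 genes listed in either table of the study. They were chosen by symbol, not by level, and 1 symbol that marks a pseudogene (Mrpl23-ps1) was left out. By symbol, 49 belong to the large subunit and 29 to the small subunit. All 78 were listed in both tables and passed the filter, which asked for 3 or more of the 6 libraries with a normalized count of 10 or above. They lie on 17 chromosomes and none on the mitochondrial genome, and their canonical transcripts are 555 to 7366 nt long, with a median of 1812 nt.

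RNA of 1000 cells per library was sequenced in 12 mouse libraries, with 3 libraries in each of 4 groups. The first table held MuSCs freshly sorted from hindlimb muscle of 3 WT mice (replicates 4, 5 and 6) and myoblasts grown from the same 3 mice for 3 days in growth medium with serum and bFGF. The second table held freshly sorted MuSCs of 3 WT and 3 Nedd4L-cKO mice (replicates 1, 2 and 3 of each), males of 5 to 6 weeks. The cKO line was Nedd4L fl/fl Pax7 cre/+ on C57BL/6, so exon 15 of the E3 ubiquitin ligase gene Nedd4l was removed in cells that express Pax7 and their descendants. The gene is still transcribed. The sources used here give no further alleles for the mice labelled WT. Cells were sorted as ITGA7+, Hoechst+, CD31-, CD45-, CD11b- and SCA1-. The 2 tables were normalized separately, so levels are compared within a table and only ranks between tables. Values are RPM (normalized counts scaled to a mean library total of 1000000) computed from the authors' normalized counts, differences are on the log2(RPM + 1) scale, and "called" means an adjusted p of at most 0.05 by limma over all genes tested in that table.

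The labels were checked against marker genes and the targeted gene. Of 9 MuSC markers 7 were called lower in myoblasts, and 3 of 5 myoblast markers and 5 of 7 myofiber markers were called higher. In the libraries labelled myoblast the myofiber markers summed to 8629 to 19730 RPM. That was above the myoblast markers, at 6104 to 7271 RPM, in every one of these libraries, so the label does not exclude differentiating cells. In the sorted MuSCs of both tables MuSC markers summed to 2765 to 7566 RPM, and endothelial, immune and Schwann cell markers to at most 103.3 RPM each. Smooth muscle and pericyte markers summed to 1090 to 3118 RPM and fibro-adipogenic markers to 46.2 to 2363 RPM in the same libraries. In Nedd4L-cKO replicate 1 these sums, 2128 and 2363 RPM, came near that of the MuSC markers, 2765 RPM. The cultured myoblasts also held 1633 to 2410 RPM of the smooth muscle and pericyte markers, but 3.1 to 4.63 RPM of the fibro-adipogenic markers. These are sums: in culture 2 of the 4 smooth muscle and pericyte genes went up and 2 down, with 1 called lower. Of the 4 fibro-adipogenic genes tested 2 went up and 2 down, with 1 called higher and 2 lower. Which cells expressed these genes was not tested. Nedd4l was at 70.2, 96.4 and 66.7 RPM in WT MuSCs and at 30.2, 36.3 and 22.5 RPM in Nedd4L-cKO MuSCs (log2 difference -1.37, SE 0.28, adjusted p = 0.0467), although a gene total does not separate exon 15. That call was lost without any 1 of the 6 libraries, with an adjusted p of 0.0587 to 0.21 and differences of -1.52 to -1.19. Library totals of normalized counts were 33189802 to 37595659 in the first table and 40323468 to 50687122 in the second. Read depth is not known from such values.

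Nuclear genes for mitochondrial proteins often carry motifs of ETS factors, NRF1, YY1 and SP1 (the GC box) close to their start sites. The stretches below show such letters in 3 genes called lower in culture and in Mrps22, whose stretch holds both an ETS match and a GC box. RefSeq promoter windows (250 bases before to 50 after the start, GRCm38.p6) were given for 69 of the 78 genes. A match was searched on both strands and a gene counted once however many windows held it. The ETS motif CCGGAAG (or CTTCCGG) was in 26 of the 69 (37.7%), against 18.1% of the 11319 genes tested in the first table that have a window and 9.93% of all 27025 genes with one. The YY1 motif AAGATGGCG was in 8 (11.6%), against 3.2% and 1.64%, and the palindromic NRF1 motif in 3 (4.35%), against 2.11% and 1.07%. The GC box GGGCGG was in 34 (49.3%), against 65% of tested genes and 38.2% of all, and the E-box CACGTG in 5 (7.25%), against 11.2% and 8.09%. The ETS and YY1 letters can overlap in AAG, matches of different motifs were counted independently, and a match is a run of letters, not a bound site. The stretches run 5′ to 3′ on the gene's strand from 20 bases before the first match up to the start site, in a part of the window whose 31-base words occur in no transcript of GENCODE M39. Matches are in capitals. Mrpl58 (chr11:115403715-115403751, plus strand) and Mrpl52 (chr14:54426842-54426908, plus strand) carry an ETS match, Mrps22 (chr9:98601680-98601846, minus strand) a GC box and an ETS match, and Mrps14 (chr1:160194981-160195214, plus strand) 3 GC boxes.
Mrpl58: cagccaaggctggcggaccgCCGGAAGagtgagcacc
Mrpl52: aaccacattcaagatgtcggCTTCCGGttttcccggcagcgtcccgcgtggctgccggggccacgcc
Mrps22: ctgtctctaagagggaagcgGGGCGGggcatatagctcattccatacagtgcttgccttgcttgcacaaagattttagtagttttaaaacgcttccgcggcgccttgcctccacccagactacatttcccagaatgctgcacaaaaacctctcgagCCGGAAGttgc
Mrps14: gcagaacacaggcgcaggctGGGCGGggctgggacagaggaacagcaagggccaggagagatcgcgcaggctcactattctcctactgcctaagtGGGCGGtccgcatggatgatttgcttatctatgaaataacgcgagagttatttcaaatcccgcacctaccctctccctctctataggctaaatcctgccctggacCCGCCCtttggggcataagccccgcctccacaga

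Per length of the canonical transcript, the 78 genes spanned a wide range in fresh MuSCs, from 5.36 to 430.1 mean RPM per kb, with medians of 40.4 for the large and 49.6 for the small subunit. Mrpl42 was highest at 430.1 RPM per kb, followed by Mrpl33 at 312.6, Mrps21 at 231.9, Mrpl28 at 228.8 and Mrpl27 at 193.6. The lowest were Mrps2 at 5.36, Mrpl19 at 7.93, Mrps5 at 9.98, Mrps25 at 10.8 and Mrpl47 at 11.7 RPM per kb. Of the 77 steps between neighbours in this order, 2 were larger than the sum of both SDs, that from Mrpl42 to Mrpl33 and one further down from Mrps24 to Mrps34. Mrps21, at 128.7 ± 43.3 RPM (SD, n = 3) on 555 nt, and Mrpl28, at 245.5 ± 13.6 RPM on 1073 nt, could not be ordered.

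The same 3 genes, Mrpl42, Mrpl33 and Mrps21, led the WT MuSCs of the second table at 325.6, 310.6 and 224.8 RPM per kb, and the Nedd4L-cKO MuSCs at 519.5, 384.1 and 352.8. They were followed there by Mrps33 and Mrpl27 in both genotypes. Mrps2 had the lowest mean in both, at 3.59 and 3.5 RPM per kb. Of the 77 steps between neighbours only that from Mrps21 to Mrps33 in WT MuSCs was larger than the sum of both SDs, and none in Nedd4L-cKO MuSCs, so neither the order of the leading 3 genes nor the lowest place was apart from its neighbour. Across the 78 genes the order per kb was alike in fresh and WT MuSCs (Spearman's rho 0.94), in WT and Nedd4L-cKO MuSCs (0.96) and, less closely, in fresh MuSCs and myoblasts (0.85). Short transcripts ranked high (rho of length with level per kb in fresh MuSCs -0.76). These are descriptions across genes that share libraries and lengths, and the level per kb holds the length in its denominator.

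**Figure D1:**
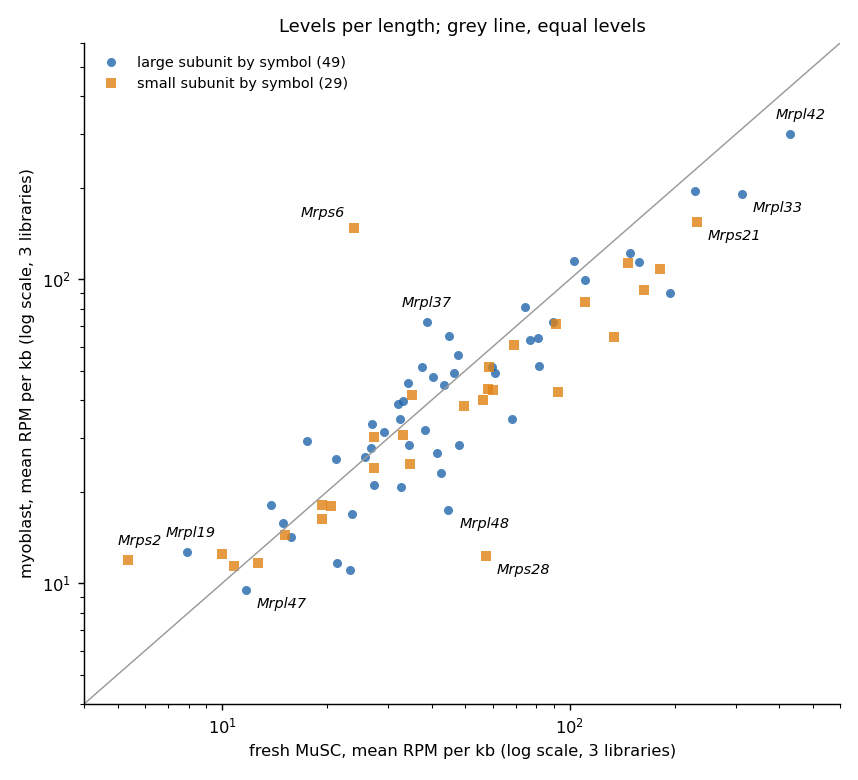
Each point is 1 of the 78 genes, with its mean RPM per kb of canonical transcript in 3 fresh MuSC libraries (x axis) and 3 myoblast libraries (y axis), both on log scales. Most genes lie near the line of equal levels. Mrps6 (24 and 147.6) and Mrps2 (5.36 and 11.9) stand above it and Mrps28 (57.4 and 12.2) below it.

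The first comparison asked how the transcriptome changed between fresh MuSCs and cultured myoblasts. Of the 78 genes 4 rose, Mrps6 (5.91-fold), Mrps2 (2.21-fold), Mrpl37 (1.83-fold) and Mrpl44 (1.68-fold), and 16 fell, led by Mrps28 (to 0.218 of its MuSC level), Mrpl48, Mrps14, Mrpl27 and Mrps24. These 20 of 78 (25.6%) stand against 42.8% of all 15345 genes tested, 22.2% called higher and 20.6% called lower. The difference was negative in 51 of the 78, with a median of -0.26, beside 0.039 over all genes. In these bulk libraries, fewer cells that express a gene and less RNA per cell cannot be told apart.

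**Figure D2:**
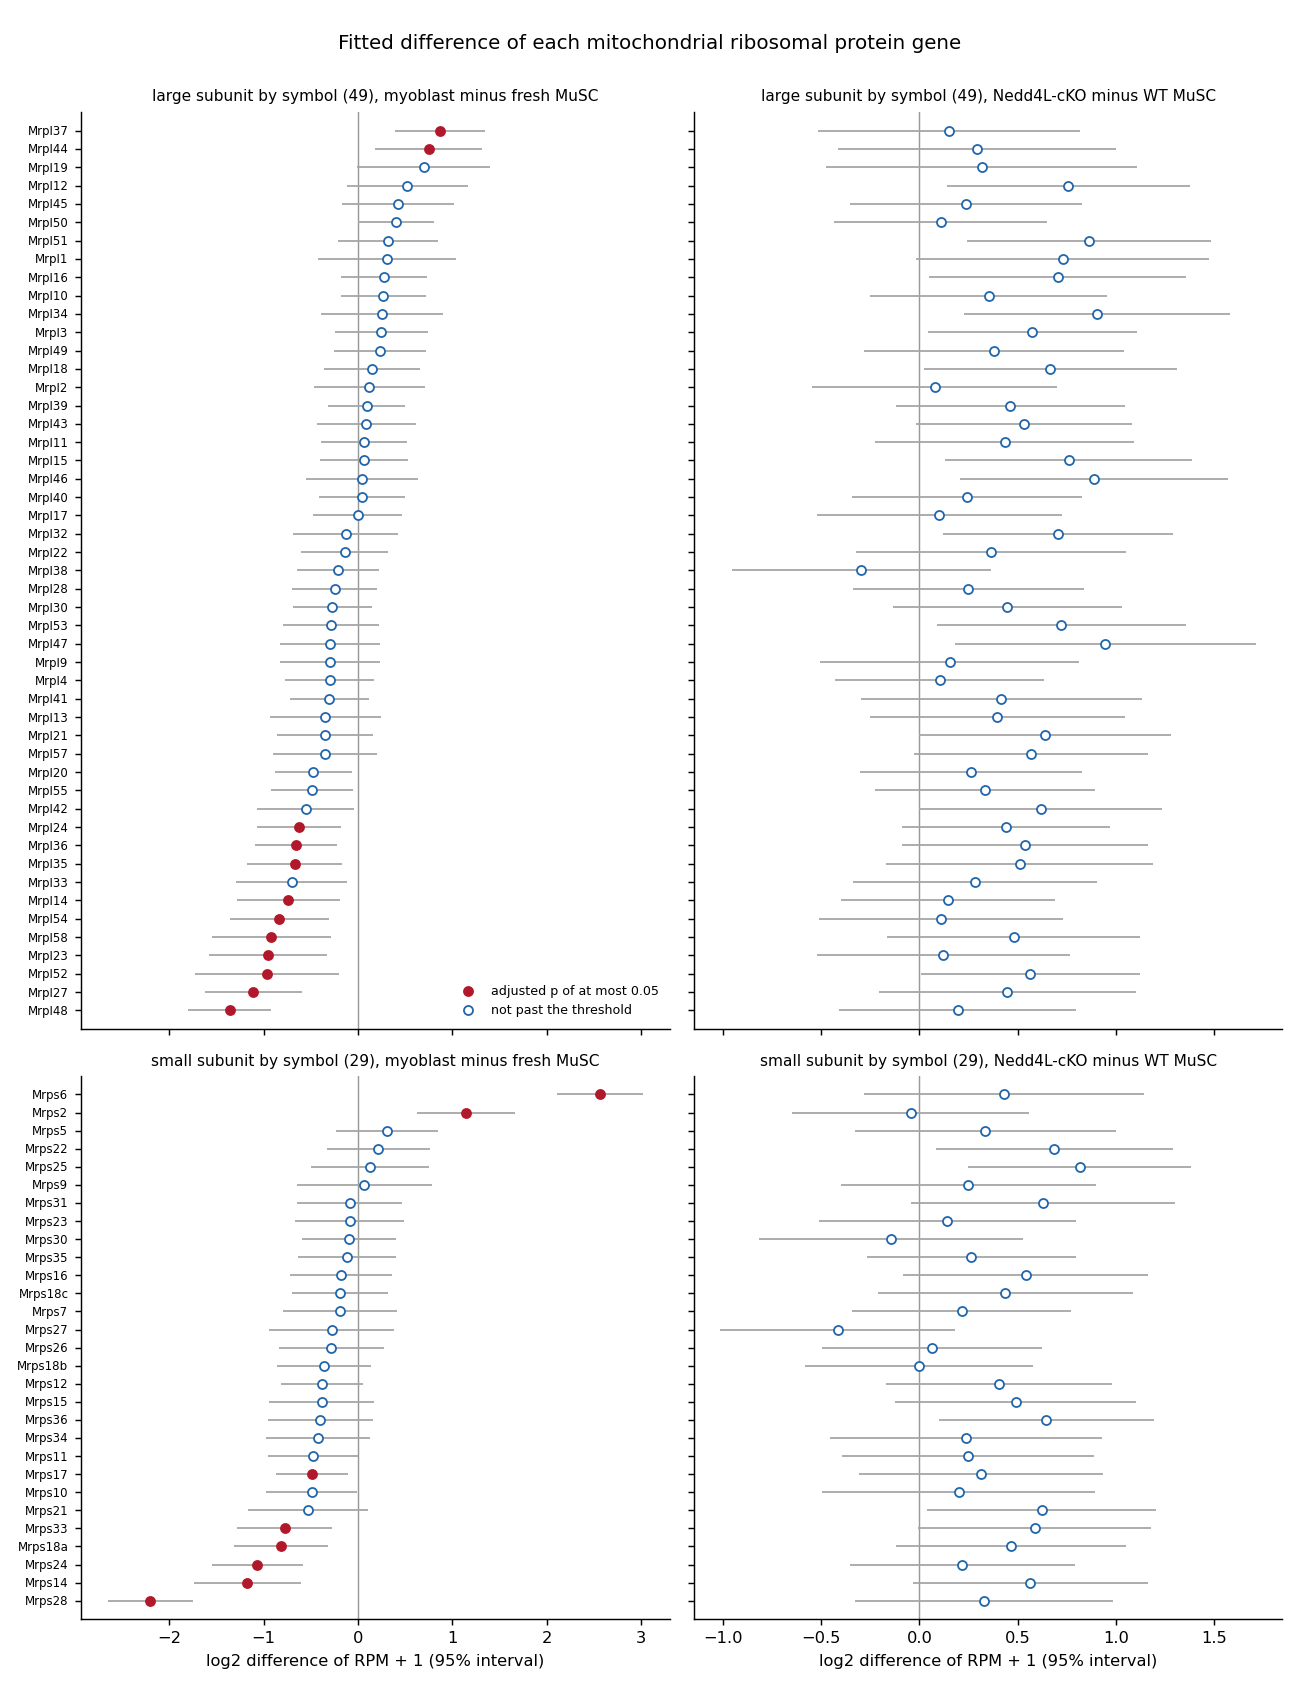
Fitted log2 differences (points) with 95% intervals (lines) of the 49 large-subunit genes (top) and 29 small-subunit genes (bottom), ordered by the myoblast difference. On the left (myoblast minus fresh MuSC) 4 filled points lie above 0 and 16 below it. On the right (Nedd4L-cKO minus WT MuSC, with its own x axis) no point is filled and 73 of 78 lie above 0.

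The gene that changed most was Mrps6, a small-subunit protein with a bacterial homologue. It was at 26.3, 23.4 and 25.2 RPM in fresh MuSCs and at 134, 180.5 and 145.5 RPM in myoblasts (log2 difference 2.56, SE 0.20, adjusted p = 2.5e-05). Every myoblast library lay far above every MuSC library. The gene (chromosome 16, 91854965 to 91909592, plus strand, GRCm39) shares exons with Slc5a3, a myo-inositol transporter gene. Of the 31-base words in the canonical Mrps6 transcript, 51% also occur in transcripts of other genes, 37.1% in those of Slc5a3. Slc5a3 itself rose, from 50.3, 15.2 and 23.9 RPM to 74.3, 134.1 and 81.9 RPM (log2 difference 1.78, adjusted p = 0.00822). How the reads of the shared part were divided was not tested.

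Mrps2, another small-subunit protein with a bacterial homologue, was at 23.2, 34.9 and 29.8 RPM in fresh MuSCs and at 71.8, 64.8 and 59.4 RPM in myoblasts (log2 difference 1.14, SE 0.23, adjusted p = 0.00395). Only 3.71% of its words occur elsewhere. It nevertheless stayed among the members with the lowest level per kb of canonical transcript (5473 nt), ranking 78 of 78 in fresh MuSCs and 73 in myoblasts. By mean RPM it was not the lowest in fresh MuSCs, at 29.3 beside 24.9 RPM for Mrpl44. Which transcript of the gene was expressed was not tested.

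Mrpl37, a large-subunit protein without a bacterial homologue, went from 80.5, 78.8 and 72.8 RPM to 181.9, 119.8 and 131.3 RPM (log2 difference 0.87, SE 0.21, adjusted p = 0.00949). Mrpl44, a large-subunit protein with an RNase III-like fold, went from 18.9, 25.1 and 30.8 RPM to 37.9, 44.5 and 43.4 RPM (log2 difference 0.75, SE 0.25, adjusted p = 0.0383). In both the groups were apart. The call of Mrpl44 was lost without fresh MuSC replicate 4 or 5 or myoblast replicate 5 or 6, with an adjusted p of 0.0859 to 0.117. With the mouse as a block the adjusted p of Mrpl44 was 0.057, so that 3 genes were called higher and 12 lower. Over all 15345 genes tested that fit called 3191 higher and 2887 lower. The other 4 members that lost the call were Mrpl14, Mrpl35, Mrpl36 and Mrps17. For Mrpl37, 45.1% of the words also occur in Cyb5rl, which was at 3.96 ± 1.29 and 8.31 ± 3.27 RPM (SD, n = 3) and was not called.

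Mrps28, a small-subunit protein that is the mitochondrial counterpart of a bacterial ribosomal protein, fell most. It was at 144.8, 183.5 and 170.4 RPM in fresh MuSCs and at 39.4, 30.5 and 36.6 RPM in myoblasts (log2 difference -2.20, SE 0.20, adjusted p = 5.4e-05). The lowest MuSC library stood well above the highest myoblast library. Its rank per kb went from 29 to 72 of 78.

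Mrpl48, a large-subunit protein of the central protuberance, was at 187.8, 216.7 and 175.4 RPM and then at 88.5, 64.6 and 72 RPM (log2 difference -1.36, SE 0.20, adjusted p = 0.000695). Mrps14, whose bacterial counterpart lies in the head of the small subunit, was at 257.5, 282.2 and 291.9 RPM in fresh MuSCs and at 178.7, 92.0 and 111 RPM in myoblasts (log2 difference -1.17, SE 0.25, adjusted p = 0.0054). Myoblast replicate 4 was the highest of the 3 myoblast libraries for both genes. Words shared with other genes were 8.66% for Mrpl48 and 25.5% for Mrps14, of which 18.1% occur in Cacybp. Cacybp was at 343.3 ± 18.6 and 396.4 ± 95.2 RPM (SD, n = 3) and was not called. How the reads of the shared part were divided was not tested.

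Mrpl27, whose bacterial counterpart reaches into the peptidyl transferase centre, went from 127.5, 170.7 and 146.3 RPM to 87.8, 56.3 and 62.7 RPM (log2 difference -1.11, adjusted p = 0.00436). Mrps24 went from 132.7, 149.4 and 135.8 RPM to 84.7, 55.2 and 61.4 RPM (log2 difference -1.07, adjusted p = 0.00383). Both groups were apart, again with replicate 4 the highest myoblast library. Words of Mrpl27 are shared with other genes at 55.5%, most of them with the pseudogene Mrpl27-ps, and words of Mrps24 at 4.46%.

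**Figure D3:**
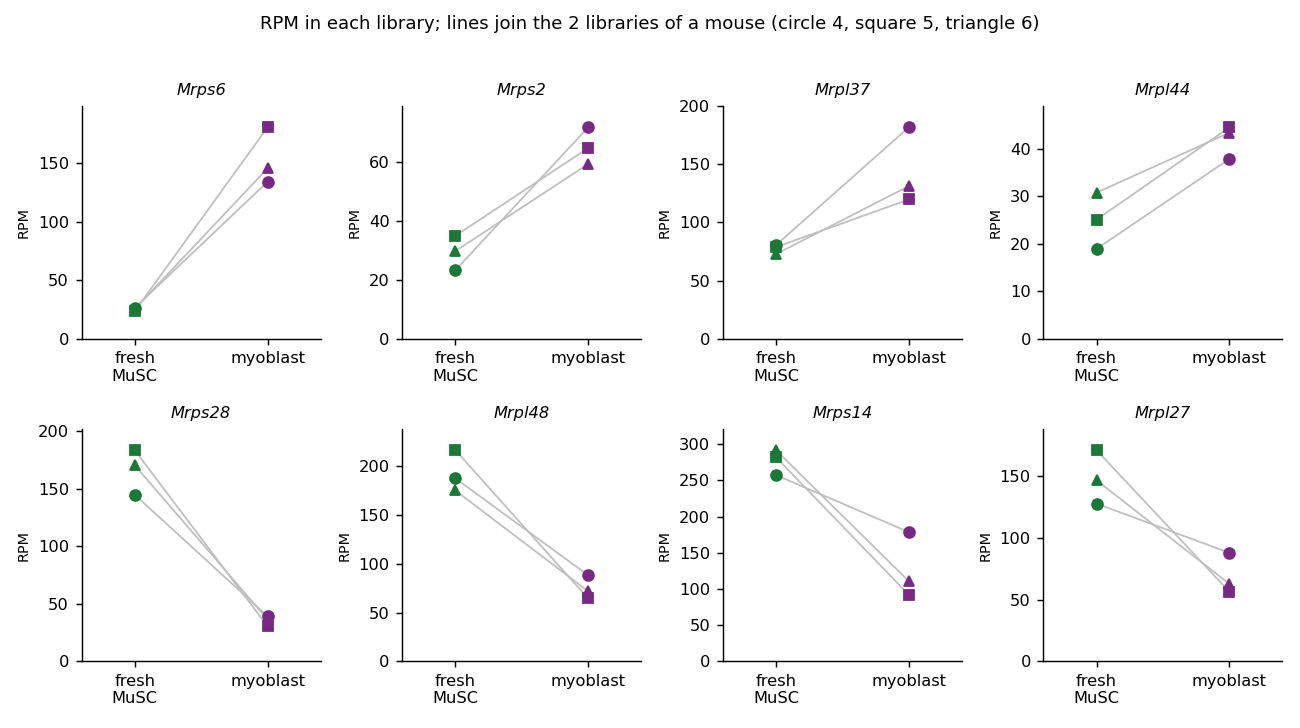
RPM (y axes, from 0) of the 4 genes called higher (top) and the 4 with the largest decreases (bottom) in each fresh MuSC and myoblast library. Lines join the libraries of a mouse. In all 8 panels the 3 lines run the same way, and in the bottom row replicate 4 (circles) is the highest of the 3 myoblast libraries.

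The next 3 decreases were smaller and closer to the threshold. Mrpl52 was at 23.1, 52.4 and 50.8 RPM in fresh MuSCs and at 18, 18.7 and 23.1 RPM in myoblasts (log2 difference -0.96, adjusted p = 0.0465). The lowest MuSC library, replicate 4, all but met the highest myoblast library. The adjusted p of Mrpl52 was 0.00547 without that library and 0.0696 to 0.16 without any of the other 5. Mrpl58, the peptidyl-tRNA hydrolase that is built into the large subunit and rescues stalled mitoribosomes, went from 95.6, 133.8 and 102.1 RPM to 85.7, 45.1 and 48.9 RPM (log2 difference -0.92, adjusted p = 0.026). Its groups were apart, with myoblast replicate 4 close to the lowest MuSC library. Without myoblast replicate 5 or 6 or fresh MuSC replicate 5 or 6 the adjusted p of Mrpl58 was 0.0584 to 0.1.

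Mrpl23 went from 36.1, 49.4 and 56.4 RPM to 21.8, 19.3 and 31 RPM (log2 difference -0.95, adjusted p = 0.0213). Of its words, 77% occur in the pseudogene Mrpl23-ps1, which had the higher level, 153.5 ± 11.2 RPM in fresh MuSCs and 61.8 ± 14.5 RPM in myoblasts (SD, n = 3). The value of Mrpl23 is therefore uncertain, and its adjusted p was 0.0719 to 0.083 without fresh MuSC replicate 5 or 6 or myoblast replicate 5. The remaining 8 genes called lower, named to complete the count and not by the naming rule, were Mrpl54, Mrps18a, Mrps33, Mrpl14, Mrpl35, Mrpl36, Mrpl24 and Mrps17, with differences of -0.83 to -0.49.

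Of 49 large-subunit genes 2 rose and 10 fell, 21 had a positive difference, and the median difference was -0.21. Of 29 small-subunit genes 2 rose and 6 fell, 6 had a positive difference, and the median was -0.28. In all, 24.5% of the large-subunit and 27.6% of the small-subunit genes were called. Over all genes tested 42.8% were called, 22.2% higher and 20.6% lower. The share that fell was thus near that of all genes in both subunits, and the share that rose was under it. Counted by the place of the protein, with Mrps30 as large and the S18 paralogues apart, none of 30 large-subunit proteins with a bacterial homologue rose and 6 fell, and of the 20 without one 2 rose and 4 fell. In the small subunit 15 genes have a bacterial homologue, of which 2 rose and 4 fell, and of the 9 without one only Mrps33 was called, lower. The difference between subunits was not tested.

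Summed over genes, the large subunit stood at 1.6, 1.7 and 1.66 times the small subunit in RPM in fresh MuSCs and at 1.85, 1.84 and 1.92 times in myoblasts. The groups of ratios were apart. They were also apart without Mrps28 (1.69 to 1.81 against 1.87 to 1.95) and with Mrps30 and Mrps18a counted as large-subunit proteins and Mrps36 left out (1.91 to 2.01 against 2.15 to 2.24). The ratio is of RPM sums over transcripts of unequal length and is not a ratio of molecules. Sums without other small-subunit genes that fell, such as Mrps14, were not examined, so a shift of the whole subunit is not shown. Among single genes, 55.2% of all those tested had groups that did not overlap.

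Some symbols do not tell the place of the protein. The 3 S18 paralogues occupy different places, with Mrps18a in the large subunit and Mrps18b and Mrps18c in the small subunit. Mrps18a fell from 145.3 ± 29.1 to 81.6 ± 13.5 RPM (SD, n = 3; log2 difference -0.82, adjusted p = 0.0162), with 64.8% of its words shared with Rsph9, and the call was lost without fresh MuSC replicate 5 or 6 or myoblast replicate 5 or 6 (adjusted p 0.0558 to 0.0704). Mrps18b was at 117.8 ± 20.6 and 91.6 ± 17.5 RPM and Mrps18c at 76.2 ± 14.5 and 66.5 ± 9.91 RPM, and neither was called. Mrps30, a large-subunit protein despite its symbol, was at 111.2 ± 25.4 and 103.1 ± 15.7 RPM. Mrps36, which is known as a part of the 2-oxoglutarate dehydrogenase complex and not of the mitoribosome, was at 64.9 ± 14.6 and 48.6 ± 7.9 RPM. Neither of these was called.

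The 58 genes that were not called had differences from -0.70 to 0.70. Mrpl42, the highest member per kb, was at 314.1, 350.3 and 335.6 RPM in fresh MuSCs and at 311, 173.1 and 215.2 RPM in myoblasts. Mrpl33 was at 161.3, 258.8 and 266.4 RPM and then at 160, 103.1 and 154.7 RPM. In both, myoblast replicate 4 reached nearly the lowest MuSC library. Over both subunits 25 genes were lower in all myoblast libraries than in any MuSC library and 8 were higher in all, where 26.8% and 28.4% of all genes did so.

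Of the 20 calls, 8 held in all 14 alternative settings, among them the omission of each library in turn. These were Mrps6, Mrps2 and Mrpl37, called higher, and Mrps28, Mrpl48, Mrps14, Mrpl27 and Mrps24, called lower. Each of the other 12 was lost without at least 3 different single libraries. Myoblast replicate 4 stood apart from the other myoblast libraries, with a median member at 0.024 above the fresh MuSC mean on the log2 scale, against -0.45 and -0.29 in replicates 5 and 6. Its summed level was 7804 RPM, within the 6930 to 8389 RPM of the MuSC libraries, against 5573 and 5977 RPM. As a share of the library's own total it was 0.806%, above the 0.65% to 0.792% of the MuSC libraries. In myoblast replicates 5 and 6 that share was 0.592% and 0.632%. Without myoblast replicate 4 there were 25 genes called lower and 4 higher, beside 3325 and 3585 of all 15345 genes tested. The reported fit called 3164 and 3402 of all genes. Without fresh MuSC replicate 5 or 6 or myoblast replicate 5, 5 genes were called lower, and without myoblast replicate 6, 7 were. Over all genes these fits called 2453, 2554, 2390 and 2457 lower. With each library scaled to its own total, 5 genes were called higher and 10 lower, beside 3880 and 2714 of all genes. That scaling moved the median of all genes from 0.039 to 0.14 and that of the members from -0.26 to -0.12.

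**Figure D4:**
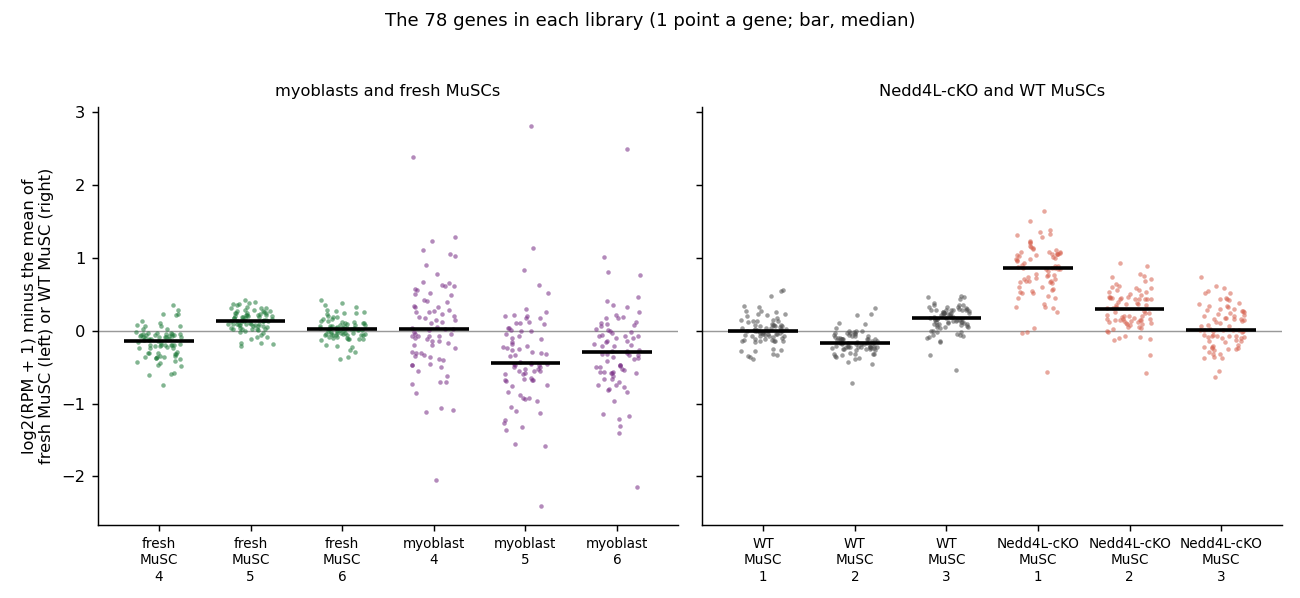
Each point is 1 of the 78 genes in 1 library, as log2(RPM + 1) minus the gene's mean over the 3 fresh MuSC libraries (left) or the 3 WT MuSC libraries (right), and bars are medians. On the left myoblast replicates 5 and 6 have medians of -0.45 and -0.29 and replicate 4 one of 0.024. On the right Nedd4L-cKO replicate 1 has a median of 0.86, above those of replicates 2 (0.29) and 3 (0.015).

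Other genes of the pathway, from lists of their known roles, did not all move with the ribosomal proteins. Of the 5 mitoribosome proteins without an Mrp symbol, Chchd1 fell (105.6 ± 23.6 to 58.7 ± 8.73 RPM, log2 difference -0.82, adjusted p = 0.0202), and Dap3, Ptcd3, Aurkaip1 and Gadd45gip1 were not called. The call of Chchd1 was lost without fresh MuSC replicate 5 or 6 or myoblast replicate 5 or 6 (adjusted p up to 0.0838). Of 27 assembly factors 5 rose and 2 fell (25.9% called), with a median of 0.41. Over all genes tested 42.8% were called, 22.2% higher and 20.6% lower. The RNA helicase gene Ddx28 had the largest increase (log2 difference 1.99, adjusted p = 0.000561), followed by the rRNA methyltransferase gene Mrm1 (1.64, adjusted p = 0.00641) and the pseudouridine synthase gene Trub2 (1.36, adjusted p = 0.00296). Mettl15 (-1.47) and Mterf3 (-0.98) fell. All 5 were called whichever library was left out.

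Mitochondrial aminoacyl-tRNA synthetases, which charge the tRNAs that the mitoribosome uses, had 8 of 17 called higher and 1 lower, with a median of 0.82. Pars2 rose from 0.576 ± 0.789 to 11.8 ± 0.918 RPM, Nars2 by 2.39 and Aars2 by 1.65 on the log2 scale, and Hars2 fell by 0.74. Aars2 was not called without fresh MuSC replicate 5 (adjusted p = 0.0541), nor Hars2 without replicate 5 or 6 of either group (up to 0.0968). Of 16 translation factors 4 rose and 2 fell. Among them Taco1 (1.73), Lrpprc (1.12) and the elongation factor gene Tufm (0.90) had the largest increases, and the recycling factor gene Mrrf (-0.87) and Guf1 (-0.65) fell. Guf1 was not called without any 1 of the 6 libraries (adjusted p 0.0549 to 0.123). Of 9 genes of mitochondrial transcription and DNA maintenance, Twnk rose (1.36) and Polg2 fell (-0.98), the latter not called without fresh MuSC replicate 4 or 5 or myoblast replicate 5 or 6 (adjusted p up to 0.102). Of the synthetases 52.9% were called, of the translation factors 37.5% and of the maintenance genes 22.2%. Over all genes tested 42.8% were called, 22.2% higher and 20.6% lower.

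Of 9 regulators of mitochondrial biogenesis, Ppargc1a (1.66) and Esrra (1.55) rose and Myc (-2.45) and Yy1 (-1.04) fell. These are 44.4% of that list, beside 42.8% called over all genes tested. Ppargc1a was called only with all libraries or without myoblast replicate 4 (adjusted p up to 0.107 otherwise), and Esrra was not called without fresh MuSC replicate 5 or myoblast replicate 5 or 6 (up to 0.0787). Of the ribosomal protein genes with a promoter window, 4 of 14 called lower and 1 of 4 called higher held the YY1 letters, and 6 of 14 and 0 of 4 the ETS letters, beside 8 and 26 of all 69 members with a window. The GC box was in 7 of 14 and 2 of 4, the E-box in 1 of 14 and 1 of 4, and the NRF1 motif in none of these. These are counts of letters with no test.

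The partners of the mitoribosome's products were placed beside it. None of the 13 mitochondrially encoded mRNAs was called (limma, 0 also at an unadjusted p under 0.05), and their median was -0.18. Without fresh MuSC replicate 4 that median was -0.44, with 1 called lower and 3 at an unadjusted p under 0.05, and without fresh MuSC replicate 6 it was 0.089. Of 82 nuclear oxidative phosphorylation subunit genes 5 rose and 10 fell, with a median of -0.25. With each library scaled to its own total 12 of these rose and 5 fell, and leaving out single libraries gave 3 to 21 called lower, with 3 without myoblast replicate 5, 4 without fresh MuSC replicate 5 or 6, 20 without myoblast replicate 4 and 21 without fresh MuSC replicate 4. Cytosolic ribosomal protein genes had 53 of 76 called lower and none higher, with a median of -0.69, beside -0.26 for the mitochondrial ones. Without fresh MuSC replicate 5 or 6 or myoblast replicate 5, 31, 33 and 35 of them were called lower. Called in the reported fit were 18.3% of the nuclear oxidative phosphorylation genes and 69.7% of the cytosolic ribosomal protein genes, beside 42.8% of all genes. The mitochondrial ribosomal RNAs were not analysed here.

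**Figure D5:**
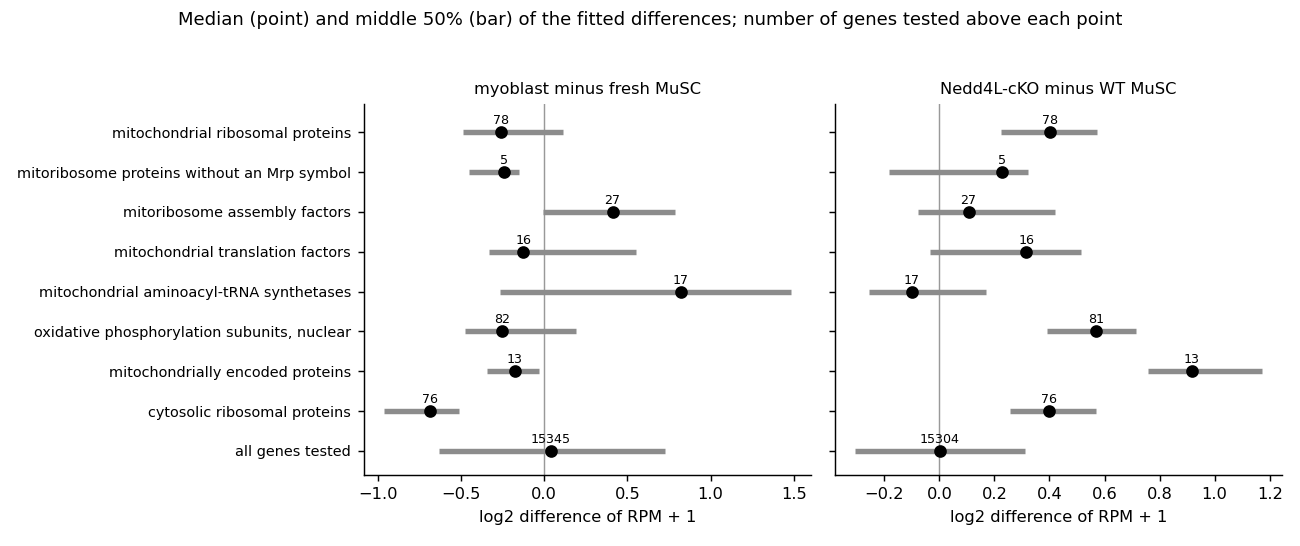
Median fitted log2 difference (point) and middle 50% of the genes (bar) for the mitochondrial ribosomal protein genes, related lists and all genes, in both comparisons (panels have their own x axes). The members sit at -0.26 on the left and 0.40 on the right, and all genes at 0.039 and 0.0015.

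The second comparison asked how loss of Nedd4L changed freshly sorted MuSCs. No mitochondrial ribosomal protein gene was called (limma, smallest adjusted p = 0.188), where 0.784% of 15304 genes were, 0.523% higher and 0.261% lower. With the added requirement of an absolute log2 difference of 1 and a mean of 5 RPM, 0 members stood beside 0.653% of all genes. Of the 78, 16 had an unadjusted p under 0.05, all of them higher in Nedd4L-cKO MuSCs, beside 7.51% of all genes higher and 7.13% lower. The difference was positive in 73 of 78 genes, in 48 of 49 of the large and 25 of 29 of the small subunit. The median was 0.40 (1.32-fold), or 0.43 for the large and 0.33 for the small subunit, beside 0.0015 over all genes. The 5 genes with a negative difference were Mrps27, Mrpl38, Mrps30, Mrps2 and Mrps18b.

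The size of this difference depended on single libraries. The median member stood at 0.86 above the WT mean in Nedd4L-cKO replicate 1, at 0.29 in replicate 2 and at 0.015 in replicate 3, beside -0.0019, -0.17 and 0.17 in the WT libraries. Replicate 3 was thus within the WT range. The summed level of the 78 genes was 10450, 7173 and 5971 RPM in Nedd4L-cKO MuSCs and 5755, 5123 and 6600 RPM in WT MuSCs. As a share of each library's own total it was 0.899%, 0.68% and 0.646% in Nedd4L-cKO MuSCs. In WT MuSCs it was 0.59%, 0.554% and 0.688%, so by this measure Nedd4L-cKO replicate 2 was also within the WT range. Without Nedd4L-cKO replicate 1, 57 of 78 genes had a positive difference, the median was 0.13, and of 3 genes with an unadjusted p under 0.05, 2 were higher and 1 was lower. The count at an unadjusted p under 0.05 was 6 without WT replicate 1, 3 without WT replicate 2, 17 without WT replicate 3, 11 without Nedd4L-cKO replicate 2 and 32 without Nedd4L-cKO replicate 3, all higher, with medians of 0.33 to 0.54. The shares of all genes at that threshold are not given for these fits, so the counts cannot be set against them. With each library scaled to its own total, 66 members were positive and their median was 0.27, while that of all genes was -0.092.

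Of the 8 genes with the smallest p, none was called. Mrps25, a small-subunit protein, was at 59.7, 48.2 and 62.2 RPM in WT and at 120.2, 108.1 and 76.8 RPM in Nedd4L-cKO MuSCs (log2 difference 0.82, SE 0.26, adjusted p = 0.188). All 3 cKO libraries were above all WT libraries. It shares 57.7% of its words with Nr2c2, which lay at 44.2 ± 10.9 and 30.9 ± 5.94 RPM (SD, n = 3).

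Mrpl51 was at 53.1, 49.3 and 74.2 RPM in WT and at 146.6, 98.3 and 83 RPM in cKO MuSCs (log2 difference 0.86, adjusted p = 0.2). Mrpl46 was at 27.6, 15.4 and 23.7 RPM and then at 56.7, 36.7 and 32.8 RPM (0.89, adjusted p = 0.229). Mrpl34 was at 13.6, 12.2 and 14.4 RPM and then at 36.5, 25.5 and 18.6 RPM (0.90, adjusted p = 0.213). In these 3 genes the groups did not overlap and replicate 1 was the highest cKO library.

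Mrpl34 shares 77.1% of its words with Gm64263, a gene model of GENCODE M39 that neither table of the study lists. Whether this sharing affected its level was not tested, so the level is uncertain. Mrpl12, which forms the flexible stalk of the large subunit, was at 66, 51.6 and 63.3 RPM in WT and at 149.9, 81.1 and 87.6 RPM in cKO MuSCs (0.76, adjusted p = 0.258). Mrpl15 was at 52.8, 59.3 and 83 RPM and then at 151, 98.5 and 86.6 RPM (0.76, adjusted p = 0.264). Mrpl32, a zinc-binding protein that matures by proteolysis before assembly, was at 47.7, 44.9 and 58 RPM and then at 110.8, 69.1 and 71.9 RPM (0.70, adjusted p = 0.265).

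Mrpl47 had the largest fitted difference of the 78 (0.95, SE 0.35, adjusted p = 0.252). It was at 20.1, 17.8 and 31.6 RPM in WT and at 72.2, 39.1 and 30.4 RPM in cKO MuSCs, and its groups overlapped. Across both subunits 19 genes were higher in all cKO than in all WT libraries and none was lower in all, where 9.75% and 9.59% of all genes were.

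The members whose place or function departs from the symbol were also tested here. Mrps18a was at 93.5 ± 17.1 and 130.9 ± 34.3 RPM (SD, n = 3), Mrps18c at 80.9 ± 12.5 and 114.5 ± 46.2 RPM, and Mrps18b at 99.5 ± 19.4 and 99.8 ± 22.6 RPM. Mrps30 was at 50.4 ± 15.1 and 44.8 ± 10.9 RPM, Mrpl58 at 58.2 ± 6.16 and 85.3 ± 33.3 RPM, and Mrps36 at 71.9 ± 5.62 and 114.8 ± 25.7 RPM. None of these 6 was called, and of them only the groups of Mrps36 did not overlap.

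The genes with the largest increase and decrease in culture overlapped between genotypes. Mrps6 was at 48.1, 20.4 and 40.9 RPM in WT and at 55.4, 44.1 and 41.3 RPM in cKO MuSCs, and Mrps28 at 138.6, 123.6 and 179.5 RPM and at 263.5, 186 and 124.4 RPM. The 16 genes called lower in myoblasts all had a positive difference in the knockout, as did 3 of the 4 called higher, beside 73 of all 78 members. The differences of the 78 genes in the 2 comparisons, which share no library, had a rank correlation of 0.093. The large-to-small ratio of sums was 1.59, 1.57 and 1.56 in WT and 1.67, 1.57 and 1.6 in cKO MuSCs.

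Several related lists, though not all, had values on the same side in the knockout. All 13 mitochondrially encoded mRNAs were higher at an unadjusted p under 0.05, with a median of 0.92, and mt-Co2 (1.17, adjusted p = 0.0399) and mt-Co3 (1.28, adjusted p = 0.0467) were called. Their share of a library was 2.83% to 4.04% in WT and 5.59% to 6.21% in cKO MuSCs. Without Nedd4L-cKO replicate 1 their median was 1.07 and none was called, with all 13 at an unadjusted p under 0.05. Leaving out WT replicate 1, 2 or 3 or Nedd4L-cKO replicate 2 also ended both calls (adjusted p up to 0.168 for mt-Co2 and 0.199 for mt-Co3).

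Of 81 nuclear oxidative phosphorylation subunit genes 78 had a positive difference, with a median of 0.57, and of 76 cytosolic ribosomal protein genes 71 did, with a median of 0.40. None of either list was called (limma), and 34 and 25 had an unadjusted p under 0.05. Without Nedd4L-cKO replicate 1 the medians were 0.30 and 0.30, beside 0.13 for the mitochondrial ribosomal protein genes. The assembly factors (median 0.11), the aminoacyl-tRNA synthetases (-0.10) and the translation factors (0.32) had no gene called, with 0, 1 and 3 at an unadjusted p under 0.05. Of the 5 mitoribosome proteins without an Mrp symbol (median 0.23), 2 had a negative difference. At an unadjusted p under 0.05, 1 of the 5 was higher and 1 lower. Differences were negative in 6 of 9 regulators of mitochondrial biogenesis (median -0.092). The same held for 5 of 9 transcription and DNA maintenance genes (-0.017). No gene of these lists was called.

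Differences by transcript length and in the sums of some marker lists were also seen in the knockout comparison. In the shortest of 5 length classes of all genes, 108 to 1685 nt, the median difference was 0.15, and in the longest it was -0.088. The 33 mitochondrial ribosomal protein genes of the shortest class had a median of 0.40, the 13 of the middle class 0.51 and the 10 of the fourth class 0.29, beside -0.044 and -0.05 over all genes of the last 2 classes named. Markers of smooth muscle and pericytes (4 genes) summed to 1135 to 1859 RPM in WT and 2128 to 3118 RPM in cKO libraries, and those of myofibers (7 genes) to 163 to 346.5 RPM and 401.2 to 499 RPM. No gene of either list was called. Summed MuSC markers were lowest in Nedd4L-cKO replicate 1, at 2765 RPM, beside 3481 and 6523 RPM in the other cKO and 3950 to 7566 RPM in the WT libraries. Fibro-adipogenic markers were highest there, at 2363 RPM, beside 244.2 to 1630 RPM in the other 5 libraries. The part of these in the higher ribosomal protein values was not tested.

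In the culture comparison the shortest length class had a median of -0.18 over all genes and the 37 members in it one of -0.34. The classes of 1753 to 2801 nt and of 3947 to 5593 nt, with 15 and 10 members, had member medians of 0.039 and 0.16, beside 0.035 and 0.17 over all genes. In the class between these, of 2802 to 3945 nt, the 13 members had a median of -0.27 beside 0.18. Myofiber markers, low in fresh MuSCs at 123.8 to 349.9 RPM in sum, were at 8629, 12350 and 19730 RPM in myoblast replicates 4, 5 and 6. The library with the lowest sum, replicate 4, was the one with the highest mitochondrial ribosomal protein levels. Its part in the result was not tested.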

How the data were processed

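The authors quantified single-end SMART-seq reads with Kallisto (version 0.46.1) on GENCODE M28 basic transcripts, imported gene values with tximport and normalized each table with DESeq2. The deposited values are normalized counts, a signal per gene and library from which neither reads nor depth could be recovered. Fold changes, p-values and RPM columns of the authors were not used. RPM was computed here as the value divided by the mean of the 6 library totals of a table, times 1000000. Genes whose normalized count reached 10 in 3 or more of the 6 libraries were tested on log2(RPM + 1) with limma 3.58.1 (R 4.3.3; trend and robust options, two-sided, Benjamini-Hochberg over all tested genes). Each p-value sets the difference between groups against the spread between these libraries. In the first table the reported fit did not use the pairing by mouse.

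Members and lists were chosen with earlier results of these data known. Named members were up to 10 increases and 8 decreases called with groups that do not overlap, the 8 smallest p where none was called, the 5 highest and lowest per kb, and members whose place or function departs from the symbol. Transcript lengths, shared 31-base words and gene positions came from GENCODE M39 (GRCm39), not the authors' release. Fresh MuSCs and myoblasts with the same number came from the same mouse per the series description. Their deviations from the group means correlated at -0.031, -0.005 and 0.018. Alternatives were a replicate block, 3 scalings, a pseudocount of 0.1 RPM, 2 filters, plain moderation and the omission of each library.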

Additional observations from a re-analysis of the deposited data

How the results depend on the processing

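Myoblast minus fresh MuSC: 16 members were called lower in the reported fit, 10 with each library scaled to its own total, 10 with totals taken without mitochondrially encoded genes, and 5 to 25 with 1 library left out. Over all genes these fits called 3164, 2714, 2726 and 2390 to 3325 lower. The number of members called higher was 3 to 5 in all settings. With the mouse as a replicate block 3 members were called higher and 12 lower, beside 3191 and 2887 of all genes. Of the 20 member calls 15 were shared. Nedd4L-cKO minus WT MuSC: no member was called in any of the 14 alternatives, and the median difference stayed positive. There the replicate number is only a number, since the mice differ (correlations of deviations 0.019, -0.023 and -0.18). The replicate block left 0 members called, 10 at an unadjusted p under 0.05 and 76 genes in all. Over all genes 120 were called in the reported fit, 213 with at least 10 normalized counts required in all 6 libraries, 50 without trend and robust options, and 22 to 123 with 1 library left out.

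Of 434 values under alternatives, of members named for their difference, p or place, 402 kept direction and side of the threshold, 24 lost the call and 8 changed sign. Over all 78 members signs changed more often: in the knockout, members with a positive difference went from 73 to 66 with own totals and to 57 without Nedd4L-cKO replicate 1. The 8 sign changes were in members with differences near 0. In myoblasts Mrps30 stood at 0.0401 with own totals, at 0.0377 with totals without mitochondrially encoded genes, and at -0.22 to 0.083 with 1 library left out, positive only without fresh MuSC replicate 4. In the knockout Mrps18b stood at -0.17 to 0.16 with 1 library left out, positive without WT replicate 3 or Nedd4L-cKO replicate 2 or 3, and Mrps30 at -0.42 to 0.061, positive without WT replicate 2 or Nedd4L-cKO replicate 3. The cause of these changes was not tested. With 3 libraries a group, the SE of a member's log2 difference was 0.24 to 0.36 in the knockout comparison, and a shift of the size of its median of 0.40 was not detectable for single members.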
